A study of Neotoma lepida with 16 samples.

Results

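Solute carriers that move amino acids, sugars and some related small molecules across membranes were followed in the livers of wild-caught desert woodrats (Neotoma lepida). They were taken by name alone: every gene whose name on the array, with the ending _predicted removed, begins with Slc1a, Slc2a, Slc3a, Slc5a, Slc6a, Slc7a, Slc36a, Slc38a or Slc43a. This gave 86 of the 41012 probes on the array and 70 of its 35561 genes or transcripts. A probe bright enough to test was found for 61 of the 70 genes, among 26486 genes tested in all.

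The animals formed 4 groups of 4: Mojave woodrats fed creosote bush, Mojave woodrats fed juniper, Great Basin woodrats fed creosote bush and Great Basin woodrats fed juniper. All 16 were kept on rabbit chow in individual cages for 3 months, and plant material was then added to the chow in growing amounts over 5 days. No group stayed on chow alone, so which of the diets moved a gene cannot be told, and ages are not stated. Each array compared the liver RNA of 1 animal, in red (Cy5), with a pool of equal amounts of RNA from all 16 animals, in green (Cy3). A value below is the log2 ratio of an animal to that pool, so that 0 is the level of the pool and 1 is a doubling. Levels of different genes are not set against each other. A diet difference is creosote minus juniper, a population difference is Mojave minus Great Basin, and both were adjusted for sex, since the Mojave creosote animals were 4 males whereas males and females were 2 and 2 in the other groups. A gene was called when its adjusted p in limma, over all 26486 genes, was below 0.05.

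Carriers of the Slc2 family let glucose, fructose and related sugars pass down their gradient, while most of the Slc5 family pull sugars, inositol or vitamins inward together with sodium. Several amino acid carriers of the Slc7 family are light chains that reach the cell surface only when bound to a heavy chain, Slc3a1 or Slc3a2. In liver, such carriers feed amino acids into protein synthesis, glucose production and the urea cycle, and let hepatocytes take up glucose after a meal and release it in fasting.

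The array carries rat probes, which were not aligned to woodrat transcripts here. Of the 61 genes tested, 31 were above background on all 16 arrays and 13 on fewer than 12, and no carrier probe was saturated on any array. The 9 genes without a test were Slc1a1, Slc2a3, Slc2a5, Slc2a12, Slc6a3, Slc6a15, Slc7a4, Slc7a11 and Slc38a4. Slc2a12 was above background on 1 array and the other 8 on none. They include the fructose carrier Slc2a5, the cystine and glutamate exchanger Slc7a11 and the liver amino acid carrier Slc38a4. These genes have only an upper bound here. The arrays lay on 4 slides that each held 1 animal of every group. Between 38 and 72 of the 86 carrier probes were above background per array, with a mean of 44.2 on the dimmest slide against 68 on the brightest. Every group kept the same position on all 4 slides, with creosote arrays at the first and second positions and juniper arrays at the others. Position therefore cannot be told apart from diet, from population on either diet, or from the difference between the populations' diet effects.

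Diet was the comparison in which carriers were called. In Great Basin animals, creosote feeding went with higher RNA of the heavy chain Slc3a1, the glucose carrier Slc2a1, the betaine carrier Slc6a12 and the cationic amino acid carrier Slc7a2, and with lower RNA of the taurine carrier Slc6a6 and the neutral amino acid carrier Slc43a2. These were 6 of 61 carriers (9.84%), against 4.00% of all genes tested. Of these, 4 were higher and 2 lower, against 2.08% and 1.93% of all genes. In Mojave animals 3 of 61 carriers were called (4.92%), against 9.56% of all genes tested: Slc3a1 and the sodium-coupled glucose carrier Slc5a1 were higher on creosote, and the glucose carrier Slc2a8 was lower. Of all genes, 3.83% were called higher and 5.73% lower in that comparison. Averaged over the populations, 4 carriers were called (6.56%, against 12.1% of all genes): Slc3a1 and Slc6a12 were higher, and Slc6a6 and the glucose carrier Slc2a4 were lower, against 5.73% and 6.38% of all genes. The median diet difference over the 61 carriers was 0.023 in Mojave animals and -0.007 in Great Basin animals, and over all genes it was -0.004 and -0.006. Called carriers went in both directions, so the 9 called genes are described one at a time.

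The counts of called carriers changed with the animals fitted, and so did those of all genes. In the Great Basin comparison 1 carrier was called without creosote 1, creosote 3, juniper 2 or juniper 4 of that population. There were 2 without its juniper 3, and 3 without Mojave juniper 1 or Mojave juniper 3. All genes called then numbered 666, 875, 733, 664, 742, 962 and 993 in that order, against 1060 with all animals. The Mojave count was 0 without Mojave creosote 1, creosote 2 or juniper 1, and 1 without Mojave creosote 4, juniper 2 or juniper 4. There all genes called numbered 2056, 1973, 1654, 2420, 1585 and 1997 in that order, against 2532 with all animals. The averaged comparison had 3 to 6 calls when each of the 16 animals was left out in turn, and 2477 to 3173 over all genes. Of the 13 calls in the 3 diet comparisons, 10 held with the slide as a block, 10 with median centring, 6 in the red channel alone and 5 with the scanner software's processed signals. Without the dimmest slide 3 held (Slc2a8 and Slc5a1 in Mojave animals and Slc3a1 averaged), and in males alone 2 held (Slc2a8 in Mojave animals and Slc3a1 averaged).

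**Figure D1:**
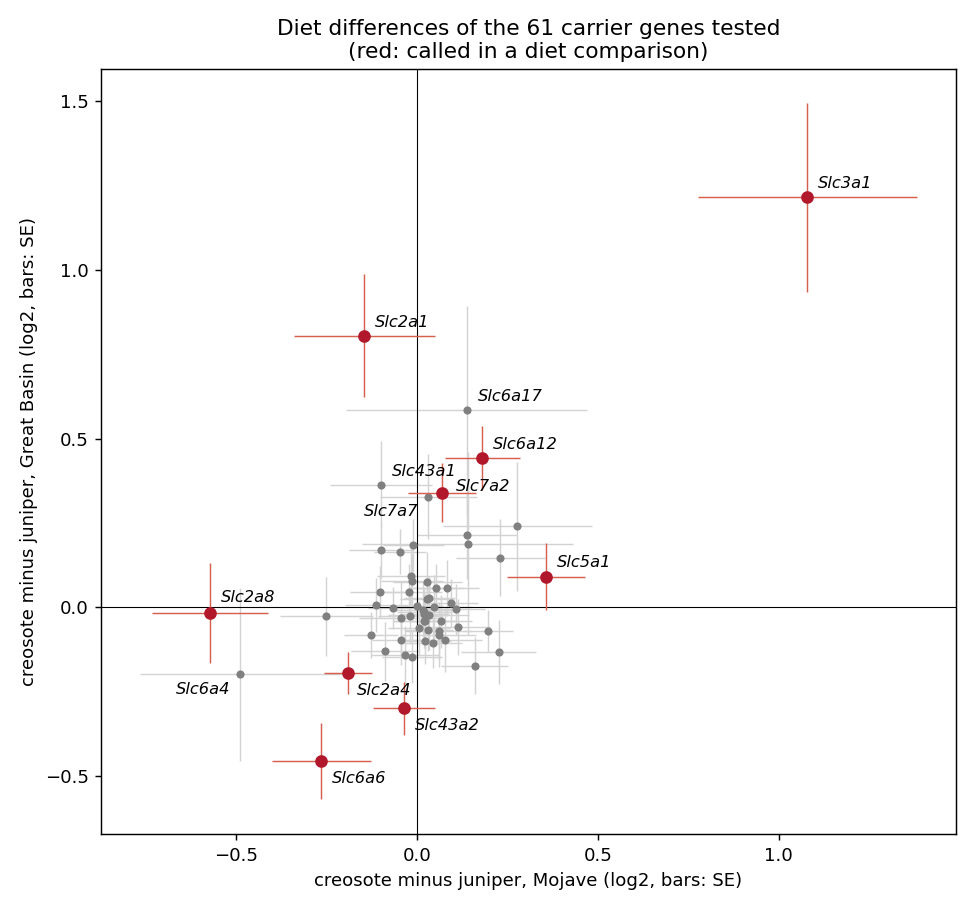
Diet differences (creosote minus juniper, log2) of the 61 carriers in Mojave animals (horizontal) and Great Basin animals (vertical), with bars of 1 standard error. Slc3a1 stands alone at the upper right (1.08 and 1.21), Slc2a1 lies at -0.14 in Mojave and 0.81 in Great Basin animals, and Slc2a8 at -0.57 in Mojave and -0.02 in Great Basin animals.

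Slc3a1 had the largest diet difference of the 61 carriers in both populations. It encodes the heavy chain that carries the light chain Slc7a9 to the cell surface, and the pair takes up cystine and basic amino acids in kidney and intestine. In Mojave woodrats, creosote animals had values of 1.04, 1.06, 0.74 and 0.85, against -0.83, 0.66, -0.04 and -0.95 on juniper. On creosote, Great Basin animals had 0.31, 0.85, 0.71 and -0.23, against -0.75, -0.90, -0.74 and -0.83 on juniper. Every creosote animal lay above every juniper animal of its own population. The juniper groups differed in spread, with an SD of 0.75 in Mojave animals and 0.078 in Great Basin animals (n = 4 each). Mojave juniper 2, at 0.66, was close to the lowest creosote animal of its population at 0.74.

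The fitted difference for Slc3a1 was 1.08 ± 0.30 in Mojave animals (SE, 2.11-fold, adjusted p = 0.0341 in limma) and 1.21 ± 0.28 in Great Basin animals (2.32-fold, adjusted p = 0.022). Its mean over the populations was 1.15 ± 0.21 (2.22-fold, adjusted p = 0.00171), and the difference between the populations' diet effects was -0.13 ± 0.41 (adjusted p = 0.935). On each of the 4 slides the creosote animal was the higher, by 0.40 to 1.87 in Mojave pairs and by 0.52 to 1.75 in Great Basin pairs. The averaged call held without any 1 animal (adjusted p up to 0.00668). Within populations the call ended in Mojave animals without Mojave creosote 1 (0.0723), creosote 2 (0.0778), creosote 4 (0.053), juniper 1 (0.181) or juniper 4 (0.0672). In Great Basin animals it ended without creosote 2 (0.061), creosote 3 (0.0729), juniper 2 (0.0543), juniper 3 (0.0617) or juniper 4 (0.0718), each an adjusted p. The Mojave call also ended with the scanner software's own processed signals (0.0535), with median centring (0.0662) and in the red channel alone (0.0611). With the processed signals the averaged difference was larger, at 1.88, and still called (0.00349).

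The probe for Slc3a1 was above background on every array, though dim on juniper: the median red signal over background was 372 intensity units in Mojave creosote animals, 110 in Mojave juniper animals, 364 in Great Basin creosote animals and 72.9 in Great Basin juniper animals. Its light chain Slc7a9 did not pass the test, at -0.03 ± 0.094 in Mojave animals (adjusted p = 0.897) and -0.14 ± 0.087 in Great Basin animals (adjusted p = 0.455). The other heavy chain, Slc3a2, which partners the light chains Slc7a5 to Slc7a8 and Slc7a10, was at -0.09 ± 0.094 in Mojave and -0.13 ± 0.087 in Great Basin animals, neither called.

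Since Slc3a1 is best known from kidney and intestine, markers of these organs were read beside it. Of 7 kidney markers, 4 could be tested and Nphs1, Slc12a3 and Kap could not. The mean value of the 4 was 0.14 to 0.19 in Mojave creosote animals, -0.18 to -0.05 in Mojave juniper animals, -0.01 to 0.14 in Great Basin creosote animals and 0.01 to 0.10 in Great Basin juniper animals. Umod was called in both populations (0.46 in Mojave, 0.40 in Great Basin) and Slc12a1 in Mojave animals (0.31), while Aqp2 and Slc34a1 were not called in either. These calls were 2 of 4 in Mojave and 1 of 4 in Great Basin animals, against 3.83% and 2.08% of all genes called higher. Of 5 testable intestine markers none was called in either population. Cdx2 was near the threshold in Great Basin animals (0.88, adjusted p = 0.0528 in limma) and at -0.02 in Mojave animals. The others, Vil1, Fabp2, Muc2 and Lct, lay between -0.23 and 0.04 in both populations. The part that kidney or intestine markers have in the Slc3a1 difference was not tested.

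**Figure D2:**
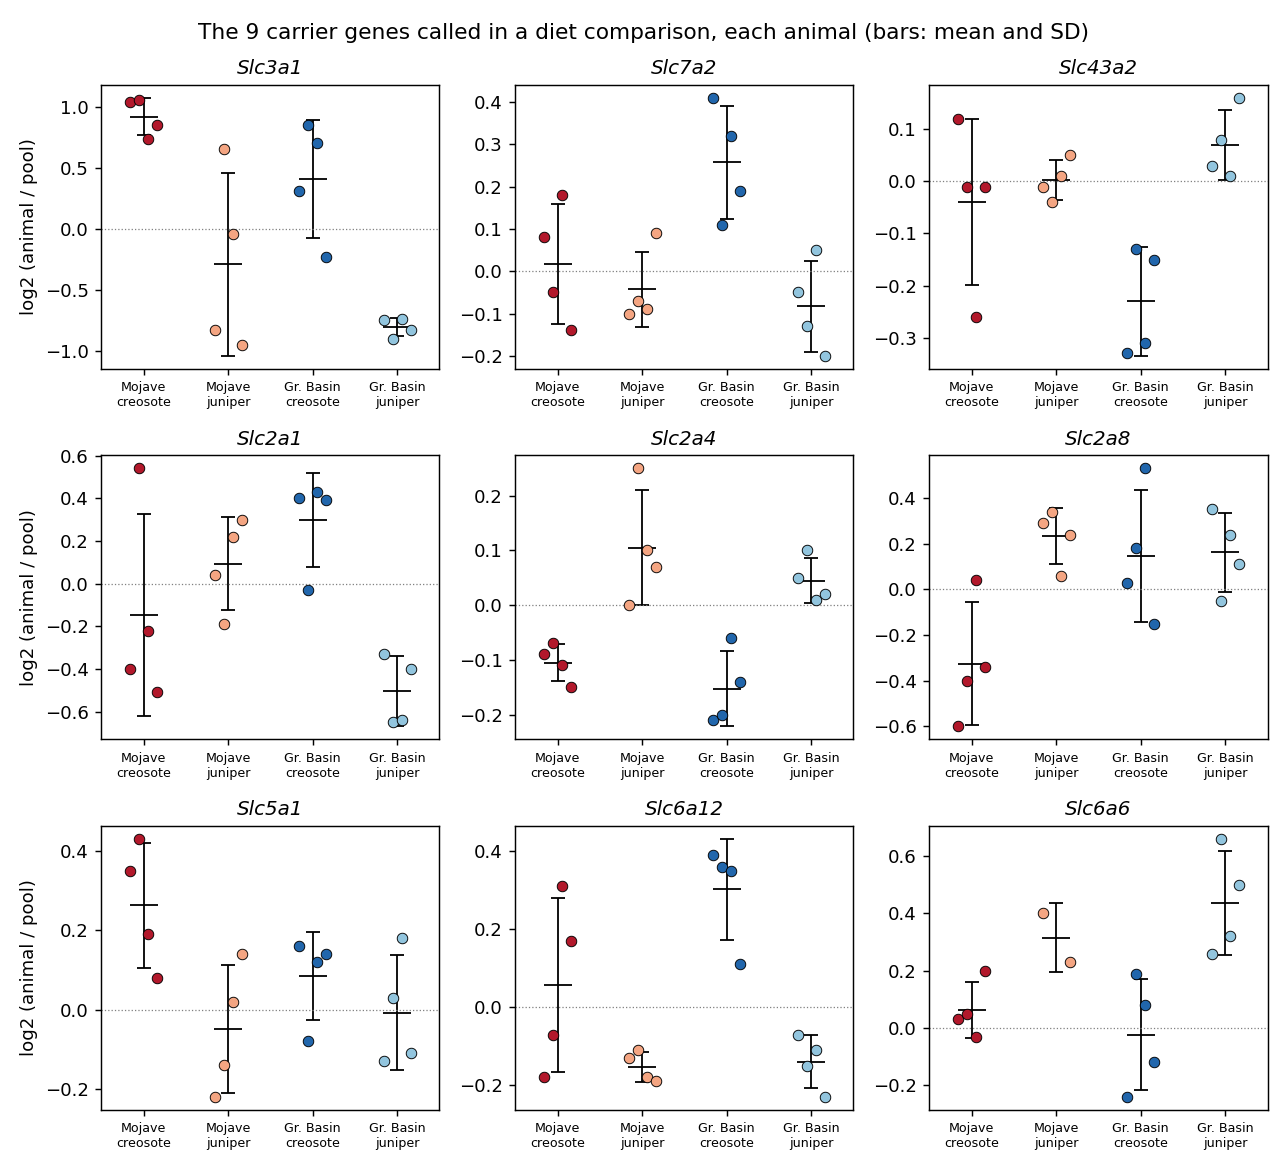
Values of the 9 called carriers in each of the 16 animals (log2 of animal over pool), with the mean and SD of each group as bars. Slc3a1 separates the diets in both populations, Slc2a1, Slc7a2 and Slc6a12 separate them in Great Basin animals, and Slc2a4 sits below 0 in all 8 creosote animals. Slc6a6 has 2 values in Mojave juniper animals.

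Slc7a2 encodes a carrier of arginine, lysine and ornithine that is typical of liver. Creosote-fed Great Basin animals had 0.41, 0.11, 0.32 and 0.19, against -0.05, -0.13, 0.05 and -0.20 on juniper, with no overlap. On creosote, Mojave animals had 0.08, -0.05, 0.18 and -0.14, against -0.10, -0.07, -0.09 and 0.09 on juniper, and these overlapped. Slc7a2 rose by 0.34 ± 0.088 on creosote in Great Basin animals (1.27-fold, adjusted p = 0.0426) and by 0.24 to 0.52 within the 4 slides. In Mojave animals its difference was 0.07 ± 0.095 (adjusted p = 0.756), and the populations' diet effects differed by -0.27 ± 0.13 (adjusted p = 0.395). The Great Basin call ended without creosote 1 (0.144), creosote 3 (0.103), juniper 1 (0.0928), juniper 2 (0.116) or juniper 4 (0.137) of that population, or without Mojave juniper 1 (0.0572), juniper 2 (0.0562) or juniper 3 (0.0542). The probe was dim, with median red signals of 30.3 to 49.6 units over background per group. An offset of 50 added to both signals draws such ratios towards 0, and the difference was 0.57 with an offset of 16 and 1.12 with processed signals, where it was not called (adjusted p = 0.127), nor was it in the red channel alone (0.161). The averaged difference of 0.20 ± 0.065 was not called (adjusted p = 0.0535), but was called without Great Basin creosote 2 (0.0359), Great Basin juniper 3 (0.0371), Mojave creosote 4 (0.0329) or Mojave juniper 4 (0.0473), and with the slide as a block (0.0488), an offset of 16 (0.0456), no sex term (0.0378) or median centring (0.0288).

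None of the other 9 cationic carriers and light chains tested was called. The nearest was Slc7a1, the cationic carrier found in most tissues. Creosote-fed Mojave animals had 0.10, 0.23, 0.14 and 0.18, against -0.03, -0.09, -0.02 and -0.01 on juniper. These did not overlap, but the difference of 0.20 ± 0.068 did not pass (adjusted p = 0.0877), except without Great Basin creosote 3 (0.0412) or with no sex term (0.0432). In Great Basin animals Slc7a1 was at -0.07 ± 0.063. Slc7a7, the light chain that exports basic amino acids, was at 0.03 ± 0.14 in Mojave and 0.33 ± 0.13 in Great Basin animals (adjusted p = 0.178). Slc7a5, Slc7a6, Slc7a8 and Slc7a10 lay between -0.10 and 0.08 in both populations. A second probe for Slc7a10 gave -0.04 in Mojave and -0.17 in Great Basin animals, neither called.

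Slc43a2 and Slc43a1 carry branched-chain amino acids, phenylalanine and methionine without needing an ion gradient. For Slc43a2, Great Basin animals on creosote had -0.33, -0.13, -0.31 and -0.15, against 0.03, 0.08, 0.01 and 0.16 on juniper. The groups did not overlap, whereas Mojave creosote animals (0.12, -0.01, -0.26 and -0.01) overlapped with Mojave juniper animals (-0.01, -0.04, 0.01 and 0.05). Slc43a2 fell by 0.30 ± 0.079 on creosote in Great Basin animals (1.23-fold, adjusted p = 0.0453), and the creosote animal was the lower on all 4 slides, by -0.47 to -0.18. In Mojave animals the difference was -0.04 ± 0.085 (adjusted p = 0.871), but -0.41 with median centring, where it was called (0.0139), and the difference between the populations was 0.26 ± 0.12 (adjusted p = 0.35). This call was close to the threshold. It ended without any 1 of 12 animals, that is all but Great Basin creosote 2 and 4 and Mojave creosote 1 and 3, with adjusted p-values of 0.0533 to 0.141, and with the slide as a block (0.05), processed signals (0.113), an offset of 16 (0.0914), median centring (0.267), the red channel alone (0.698) and no filter on dim probes (0.0519). The averaged difference of -0.17 ± 0.058 was not called (adjusted p = 0.0758), but was called without Mojave creosote 1 (0.0382), with no sex term (0.0462) and with median centring (0.00952). A second Slc43a2 probe, above background on 8 arrays, gave 0.01 ± 0.066 in Great Basin animals and did not show the difference.

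Slc43a1 was not called in a diet comparison (-0.10 ± 0.14 in Mojave, 0.36 ± 0.13 in Great Basin animals, adjusted p = 0.76 and 0.145), except in Great Basin animals without Mojave creosote 3 (0.041). Of the other 10 carriers of the Slc36, Slc38 and Slc43 families tested, which include glutamine carriers and lysosomal exporters, none was called by its brightest probe. Slc38a3, the sodium-coupled glutamine carrier of hepatocytes, was at -0.01 ± 0.086 in Mojave and 0.08 ± 0.08 in Great Basin animals. Slc38a2, a carrier of small neutral amino acids that many cells raise when these run short, was at 0.02 ± 0.084 in Mojave and -0.04 ± 0.078 in Great Basin animals, and its second probe at -0.11 and 0.06. Slc36a1, Slc38a1 and Slc38a5 were between -0.02 and 0.09 in both populations.

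The probes for Slc38a6 disagreed. The brightest gave -0.01 ± 0.085 in Mojave and 0.18 ± 0.078 in Great Basin animals, neither called. The second probe, above background on 13 arrays, had 0.38, 0.72, 0.02 and 0.00 in Mojave animals on creosote, against -0.23, -0.32, -0.18 and -0.44 on juniper, with no overlap. Its Mojave difference was 0.60 ± 0.15 (adjusted p = 0.0162 over all 30106 probes kept, of which 10.0% were called in that comparison). In Great Basin animals the difference was 0.25 ± 0.14 (adjusted p = 0.386). Averaged over the populations the second probe was at 0.425 ± 0.10 and called (adjusted p = 0.0105), as were 3682 of the 30106 probes. Whether these probes measure the same woodrat transcript was not tested.

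Among facilitated sugar carriers, Slc2a1, the glucose carrier of the blood-brain barrier and of many growing or hypoxic tissues, differed with diet in Great Basin animals. Those on creosote had 0.40, -0.03, 0.43 and 0.39, against -0.33, -0.65, -0.64 and -0.40 on juniper. The lowest creosote animal still lay above the highest juniper animal. The Mojave animals on creosote had -0.40, 0.54, -0.22 and -0.51, against 0.04, -0.19, 0.22 and 0.30 on juniper, where 3 of the creosote animals lay below every juniper animal and creosote 2 lay above them all.

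Slc2a1 rose by 0.81 ± 0.18 on creosote in Great Basin animals (1.75-fold, adjusted p = 0.0206), and within slides by 0.62 to 1.04. The call ended without creosote 1 (0.0748), creosote 3 (0.0508), juniper 2 (0.0717) or juniper 3 (0.0567) of that population, and with processed signals (0.0557). The Mojave difference was -0.14 ± 0.20 (adjusted p = 0.75). The difference between the populations' diet effects was -0.95 ± 0.27, with an unadjusted p of 0.00291 and an adjusted p of 0.149, and was therefore not called. It was -1.18 with an adjusted p of 0.0498 without Mojave creosote 2, where 6 of all genes were called. When arrays were only centred on their medians it was -1.42, with an adjusted p of 0.0153. Under that centring 2431 of all genes were called for this difference, against 0 with loess.

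Slc2a4 encodes the glucose carrier that insulin brings to the surface of muscle and fat cells. In the Mojave population creosote animals had -0.09, -0.07, -0.11 and -0.15, against 0.00, 0.25, 0.10 and 0.07 on juniper. The Great Basin animals on creosote had -0.21, -0.20, -0.06 and -0.14, against 0.05, 0.10, 0.01 and 0.02 on juniper. All 8 creosote animals lay below all 8 juniper animals. Of all genes, creosote animals lay wholly below juniper animals for 9.39% in Mojave and 5.44% in Great Basin animals. The share of genes that separate all 16 animals in this way was not counted. Slc2a4 fell on creosote in the comparison averaged over the populations, by 0.19 ± 0.046 (1.14-fold, adjusted p = 0.011), and this call held without any 1 animal (adjusted p up to 0.0295). Within populations the differences were alike in size but not called, at -0.19 ± 0.067 in Mojave (adjusted p = 0.0923, but 0.0324 with no sex term and 0.00304 with median centring) and -0.20 ± 0.062 in Great Basin animals (adjusted p = 0.095, and 0.0498 without Mojave juniper 2). The creosote animal was the lower in all 8 slide pairs, by -0.32 to -0.08. Centring on medians alone gave a larger averaged difference of -0.30, and in the red channel alone the averaged call was lost (-0.21, adjusted p = 0.0714). A second probe, above background on only 4 arrays, gave an averaged difference of -0.03 ± 0.053 and did not show it.

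Slc2a8 encodes a sugar carrier held mainly inside the cell. Mojave animals on creosote had -0.60, -0.40, 0.04 and -0.34, against 0.29, 0.34, 0.06 and 0.24 on juniper. These did not overlap, although the highest creosote animal (0.04) and the lowest juniper animal (0.06) nearly met. In the Great Basin population creosote animals had 0.03, 0.18, 0.53 and -0.15, against 0.35, -0.05, 0.24 and 0.11 on juniper, and they overlapped. Slc2a8 fell by 0.57 ± 0.16 on creosote in Mojave animals (1.49-fold, adjusted p = 0.0344), with slide pairs at -0.89 to -0.02. In Great Basin animals the difference was -0.02 ± 0.15, and that between the populations was -0.56 ± 0.22 (adjusted p = 0.289). With median centring the latter was -0.86 and called (0.0498), as were 2431 of all genes, against 0 with loess. The Mojave call ended without Mojave creosote 1 (0.0915), creosote 2 (0.0791), creosote 4 (0.0622), juniper 1 (0.107), juniper 2 (0.125) or juniper 4 (0.0624), or without Great Basin juniper 3 (0.0508), and with the slide as a block (0.0575), processed signals (0.0676) and the red channel alone (0.247). The averaged difference of -0.29 ± 0.11 was not called (adjusted p = 0.101), except without Great Basin creosote 3 (0.0157) or Mojave creosote 3 (0.0325).

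Slc2a2, the main glucose carrier of hepatocytes, was at 0.28 ± 0.21 in Mojave and 0.24 ± 0.19 in Great Basin animals (adjusted p = 0.497 and 0.588). Its animals overlapped between diets in both populations, from -0.37 to 0.63 on creosote and from -0.37 to 0.02 on juniper in Mojave animals. Slc2a10 was at 0.03 ± 0.069 in Mojave and -0.07 ± 0.064 in Great Basin animals, not called.

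Of 11 sodium-coupled carriers of the Slc5 family, Slc5a1 was called. It is the glucose and galactose carrier of the gut lining. On creosote, Mojave animals had 0.35, 0.43, 0.19 and 0.08, against -0.22, -0.14, 0.02 and 0.14 on juniper, overlapping by 1 animal of each diet. Great Basin animals on creosote had 0.16, -0.08, 0.12 and 0.14, against -0.13, 0.03, 0.18 and -0.11 on juniper, and these overlapped widely. Slc5a1 rose by 0.36 ± 0.11 on creosote in Mojave animals (1.28-fold, adjusted p = 0.0473), with slide pairs at -0.06 to 0.57. In Great Basin animals it was at 0.09 ± 0.099 (adjusted p = 0.709), and the difference between the populations was 0.26 ± 0.14 (adjusted p = 0.467). The Mojave call ended without any 1 of 11 animals, that is all but Great Basin creosote 1, Great Basin juniper 1 and 3, Mojave creosote 4 and Mojave juniper 4, with adjusted p-values of 0.0528 to 0.19, and with the slide as a block (0.0599). The probe was dim, with median red signals of 38.5 to 69.1 units over background per group, and its difference was 0.90 with processed signals (adjusted p = 0.0455) and 0.53 with an offset of 16, where it was not called (0.0551). The call was also lost with no sex term (0.0509), with no filter on dim probes (0.0546) and in the red channel alone (0.272).

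The averaged difference of Slc5a1, 0.22 ± 0.073, was not called (adjusted p = 0.0583), but was called without Great Basin creosote 2 (0.0485), Great Basin juniper 3 (0.0185), Mojave creosote 4 (0.0336), Mojave juniper 4 (0.0474) or the dimmest slide (0.0427). Slc5a2, the glucose carrier of the kidney tubule, was at 0.23 ± 0.10 in Mojave and -0.13 ± 0.095 in Great Basin animals (adjusted p = 0.209 and 0.528), and its second probe at 0.02 and -0.16. The inositol carrier Slc5a3 and the vitamin carrier Slc5a6 lay between -0.04 and -0.02 in both populations, and a second Slc5a3 probe at -0.16 in Mojave and 0.00 in Great Basin animals. None of these was called, though in the red channel alone Slc5a2 was, at -0.57 in Great Basin animals (adjusted p = 0.0211).

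**Figure D3:**
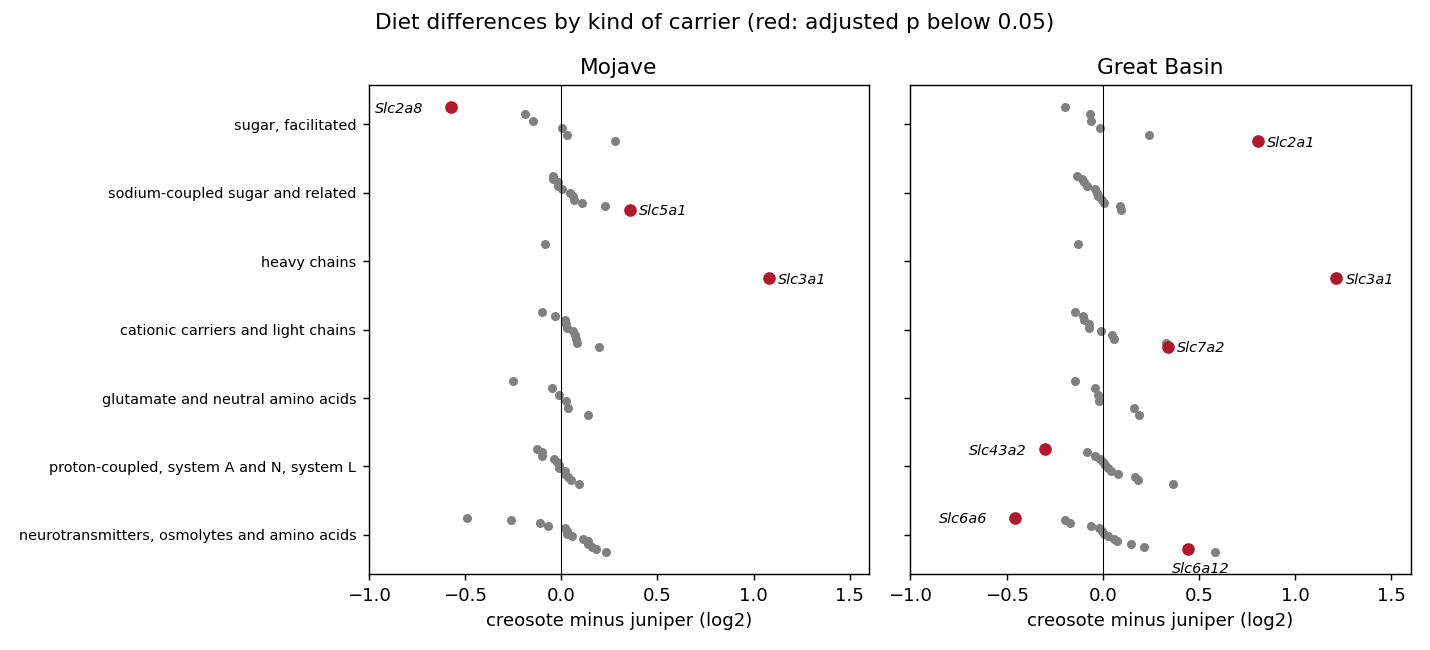
Diet differences (creosote minus juniper, log2) of the 61 carriers by kind of carrier, in Mojave animals (left) and Great Basin animals (right), with called genes in red and named. The median size of a difference is 0.066 in Mojave and 0.082 in Great Basin animals, and Slc3a1, 1 of the 2 heavy chains, lies farthest out in both panels.

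The Slc6 family carries osmolytes, neurotransmitters and amino acids with sodium and chloride, and 14 of its genes were tested. Slc6a12 takes up betaine, an osmolyte and methyl donor, as well as GABA. On creosote, Great Basin animals had 0.39, 0.36, 0.35 and 0.11, against -0.07, -0.15, -0.11 and -0.23 on juniper, with no overlap. Creosote-fed Mojave animals had -0.18, -0.07, 0.31 and 0.17, against -0.13, -0.11, -0.18 and -0.19 on juniper, and they overlapped. Slc6a12 rose by 0.44 ± 0.095 on creosote in Great Basin animals (1.36-fold, adjusted p = 0.0156), with slide pairs at 0.18 to 0.58. In Mojave animals it was at 0.18 ± 0.10 (adjusted p = 0.335), but at 0.56 in the red channel alone, where it was called (0.012). The populations' diet effects differed by -0.26 ± 0.14 (adjusted p = 0.452). With arrays only centred on their medians this was -0.84 and called (0.0313), as were 2431 of all genes, against 0 with loess.

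Averaged over the populations Slc6a12 rose by 0.31 ± 0.07 (adjusted p = 0.00801), and this held without any 1 animal (up to 0.0286) but not with median centring (0.19, adjusted p = 0.267). In the red channel alone the averaged difference was 0.68. The Great Basin call ended without creosote 1 (0.0537) or juniper 4 (0.0606) of that population, and with processed signals (0.0624). Bhmt, the liver enzyme that uses betaine to remethylate homocysteine, rose on creosote as well, by 0.65 ± 0.17 in Mojave (adjusted p = 0.0288) and 1.57 ± 0.15 in Great Basin animals (adjusted p = 7.96e-05).

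Slc6a6 carries taurine, with which the liver conjugates bile acids. Creosote-fed Great Basin animals had -0.24, 0.19, 0.08 and -0.12, against 0.26, 0.66, 0.32 and 0.50 on juniper, with no overlap. The Mojave animals on creosote had 0.03, 0.05, -0.03 and 0.20, against 0.40 and 0.23 in juniper 1 and 3. The spots of Mojave juniper 2 and 4 were left out as outliers by the scanner software, so the Mojave difference of -0.26 ± 0.14 (adjusted p = 0.29) rests on 2 juniper animals. With the slide as a block this Mojave difference was -0.39 and was called (adjusted p = 0.0258), as it was with median centring, at -0.58 (0.0298). Slc6a6 fell by 0.46 ± 0.11 on creosote in Great Basin animals (1.37-fold, adjusted p = 0.0393), and the creosote animal was the lower on all 4 slides, by -0.56 to -0.38.

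The averaged difference of Slc6a6 was -0.36 ± 0.089 (adjusted p = 0.0176). It was lost without Mojave juniper 1 (adjusted p = 0.109), where a single juniper animal of that population is left and is assumed to vary like the other groups. The Great Basin call ended without creosote 1 (0.119), creosote 3 (0.052), creosote 4 (0.0854), juniper 2 (0.118), juniper 3 (0.0517) or juniper 4 (0.11) of that population, or without Mojave juniper 1 (0.0561) or juniper 3 (0.0541). In the red channel alone the Great Basin difference was -1.50 (adjusted p = 0.0446) and the averaged difference -0.96, which was not called (0.073). Processed signals ended both calls (0.12 in Great Basin animals, 0.0901 averaged), and an offset of 16 ended the Great Basin call (0.0526).

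The other 12 Slc6 carriers were not called in a diet comparison. Slc6a13, a GABA and taurine carrier of liver, was at 0.23 ± 0.12 in Mojave and 0.15 ± 0.11 in Great Basin animals. The creatine carrier Slc6a8 was at 0.14 ± 0.14 in Mojave and 0.21 ± 0.13 in Great Basin animals by its brightest probe, and at -0.05 ± 0.085 and -0.21 ± 0.079 by its second probe, so the probes had opposite signs. The glycine carrier Slc6a9 was at 0.16 ± 0.092 in Mojave and -0.17 ± 0.085 in Great Basin animals, where creosote and juniper animals did not overlap, without a call in either. The 6 carriers of glutamate and small neutral amino acids of the Slc1 family that were tested also had no call. Of these, Slc1a2, Slc1a3, Slc1a4 and Slc1a5 lay between -0.25 and 0.14 in Mojave and between -0.04 and 0.19 in Great Basin animals. Slc1a4 was called in Mojave animals with median centring (-0.47, adjusted p = 0.0485), and in Great Basin animals the red channel alone gave calls for Slc1a5 (-0.32, 0.0395) and the noradrenaline carrier Slc6a2 (-0.51, 0.00956). The second Slc1a2 probe was at 0.01 and -0.05.

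Over the 61 carriers, creosote animals lay wholly above juniper animals for 2 genes in Mojave animals (Slc3a1 and Slc7a1) and wholly below for 3 (Slc2a4, Slc2a8 and Slc6a6, the last with 2 juniper animals), against 7.35% and 9.39% of all genes tested. In Great Basin animals they lay wholly above for 4 (Slc2a1, Slc3a1, Slc6a12 and Slc7a2) and wholly below for 4 (Slc2a4, Slc6a6, Slc6a9 and Slc43a2), against 5.06% and 5.44% of all genes.

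**Figure D4:**
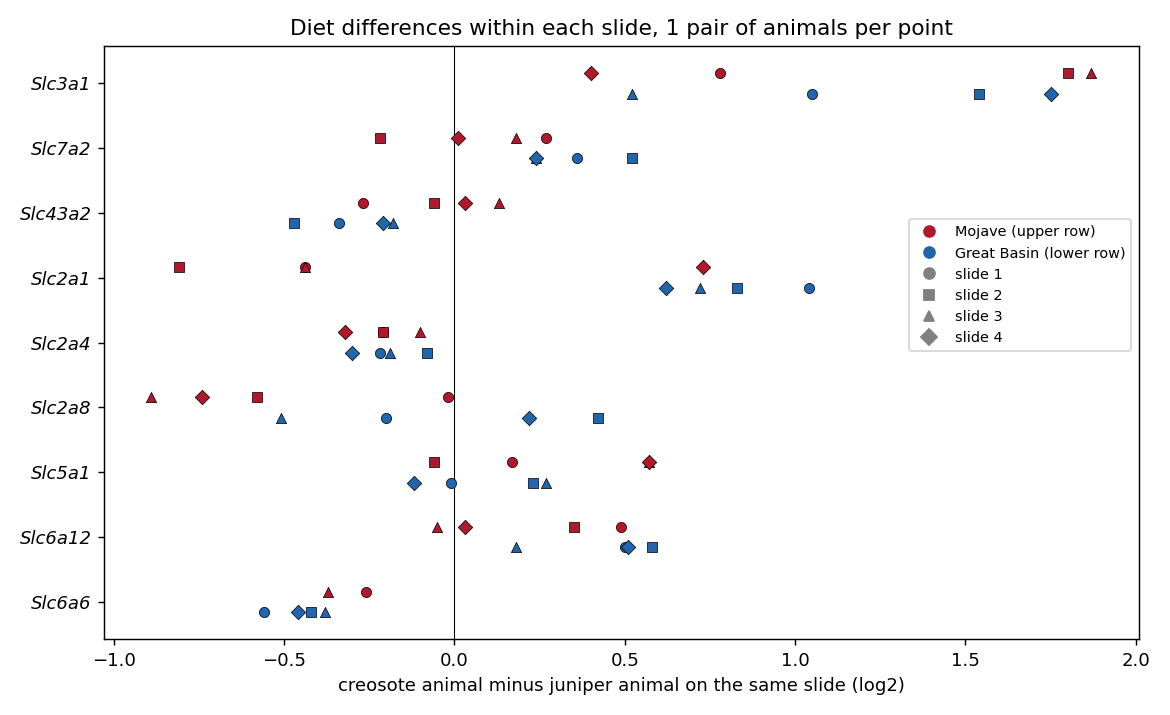
Difference between the creosote and the juniper animal of each population on the same slide (log2) for the 9 called carriers, with 1 symbol per slide. All 8 pairs lie above 0 for Slc3a1 and below 0 for Slc2a4, and the 4 Great Basin pairs lie on the same side of 0 for Slc7a2, Slc43a2, Slc2a1, Slc6a12 and Slc6a6.

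No carrier was called in a population comparison or for the difference between the populations' diet effects. On creosote 0 of 61 carriers were called in limma, against 0.0793% of all genes, and 8 (13.1%) had an unadjusted p below 0.05, against 14.1% of all genes. On juniper 0 were called, against 0.0113% of all genes, and 5 (8.20%) had an unadjusted p below 0.05, against 8.06%. Averaged over the diets 0 were called, against 0.0340% of all genes, and 4 (6.56%) had an unadjusted p below 0.05, against 9.30%. For the difference between the diet effects 0 carriers and 0 of all genes were called, and 9 carriers (14.8%) had an unadjusted p below 0.05, against 13.0% of all genes.

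The nearest of these was Slc43a1 on creosote. Mojave animals had -0.49, -0.45, 0.13 and -0.45 on creosote, against 0.43, 0.08, 0.59 and 0.43 in Great Basin animals on the same diet. On juniper, Mojave animals had 0.00, -0.31, -0.10 and -0.12, against 0.22, 0.02, -0.15 and 0.00 in Great Basin animals. The creosote animals overlapped only through Mojave creosote 3 and Great Basin creosote 2. The difference on creosote was -0.62 ± 0.14 (adjusted p = 0.0841), with slide pairs at -1.04 to -0.30, and on juniper it was -0.15 ± 0.13 (adjusted p = 0.823). It was called without Mojave creosote 3 (-0.76, adjusted p = 0.0136), without Great Basin creosote 4 (0.0491) and with no sex term (-0.70, adjusted p = 0.0295). Averaged over the diets it was -0.39 ± 0.095 (adjusted p = 0.166, and 0.0283 without Mojave creosote 3). Slc6a9 on creosote, at 0.29 ± 0.092 (adjusted p = 0.177), was likewise called only without Mojave creosote 3 (0.0423).

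When arrays were only centred on their medians, 7 carriers were called between the populations on creosote, all lower in Mojave animals: Slc2a1, Slc2a8, Slc6a8, Slc6a12, Slc7a7, Slc36a4 and Slc43a1. All genes called in that comparison then numbered 3124, against 21 with loess. Under the same centring 6 carriers were called for diet in Mojave animals, of which 1 was higher and 5 were lower on creosote. With loess 2 were higher and 1 was lower. All genes called for diet in Mojave animals numbered 4767 with this centring, against 2532 with loess.

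**Figure D5:**
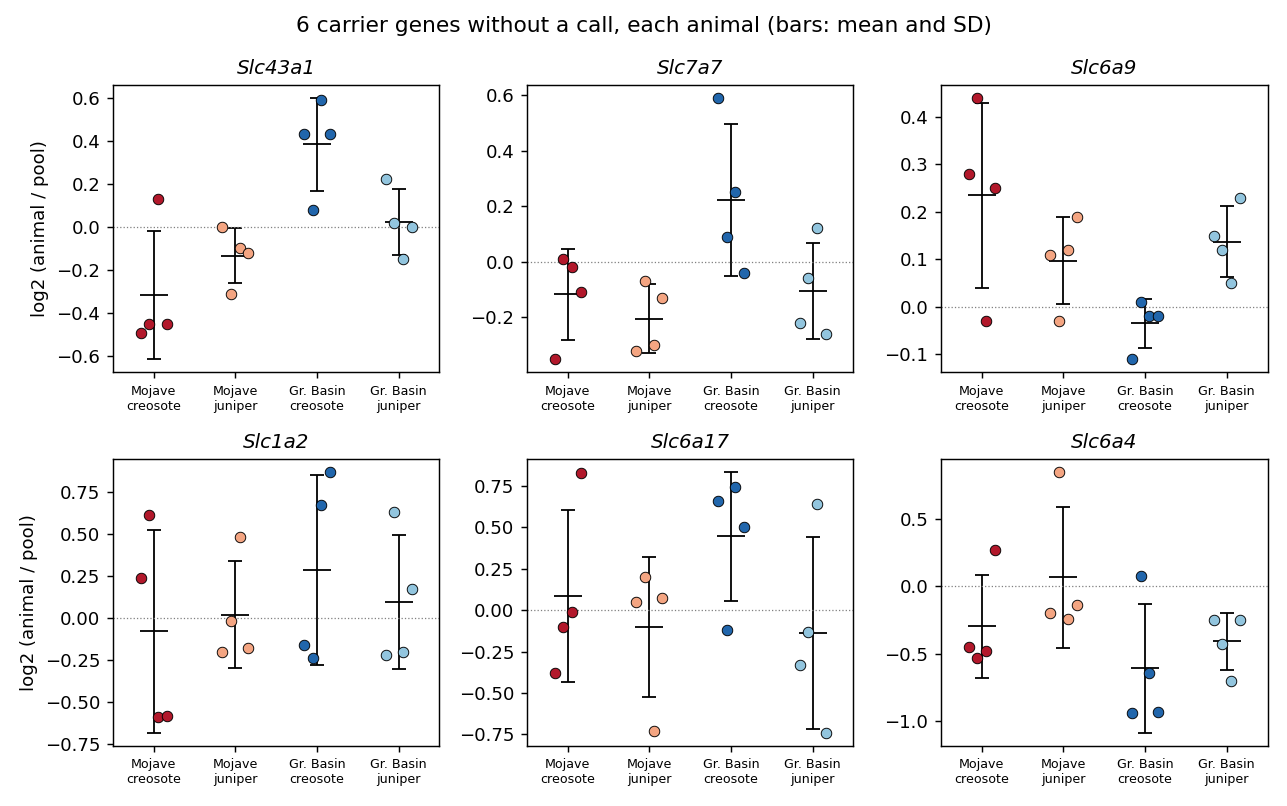
Values of 6 carriers without a call in each of the 16 animals (log2 of animal over pool), with the mean and SD of each group as bars. Slc43a1 is lowest in Mojave creosote animals and highest in Great Basin creosote animals, and Slc1a2, Slc6a17 and Slc6a4 vary widely within groups.

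The SD within groups had a median of 0.113 over the carriers and 0.126 over all genes. The most variable carriers were the glutamate carrier Slc1a2 (0.487), the vesicle amino acid carrier Slc6a17 (0.485), Slc3a1 (0.455) and the serotonin carrier Slc6a4 (0.417). Of these, Slc3a1 alone was called. No carrier was called between males and females, against 0.00378% of all genes, and the count of carriers with an unadjusted p below 0.05 was 3 (4.92%, against 4.37% of all genes). Slc1a2 was at -0.48 ± 0.22 for male minus female (unadjusted p = 0.0447, adjusted p = 0.996).

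Genes that act beside these carriers were read from lists made by hand with earlier results of these data known. Their called shares, set beside those of all genes, therefore describe the lists and are no independent test of them. Of 11 other amino acid carriers tested, 1 was called in Mojave animals (the mitochondrial glutamate carrier Slc25a22, -0.34 ± 0.076, adjusted p = 0.0114), a share of 9.09% that is near the 9.56% of all genes. Of the same 11, 0 were called in Great Basin animals in limma, and 3 (27.3%) had an unadjusted p below 0.05, against 17% of all genes. Averaged over the populations 3 of the 11 were called, against 12.1% of all genes. Slc16a10 (0.31) and Slc25a15 (0.56) were higher there, and Slc25a22 (-0.23) was lower. Of 10 other carriers and channels for sugars, lactate and glycerol, 3 were called in Mojave and 1 in Great Basin animals, against 9.56% and 4.00% of all genes, and with so few genes listed 1 call is no result about the list. Aqp9, the glycerol channel of hepatocytes, rose by 1.12 ± 0.19 in Mojave (adjusted p = 0.00173) and 1.06 ± 0.17 in Great Basin animals (adjusted p = 0.00229). In Mojave animals the glycerol channel Aqp3 rose by 1.23 ± 0.29 (adjusted p = 0.0159) and the sugar phosphate carrier Slc37a2 fell by 0.69 ± 0.14 (adjusted p = 0.00721).

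Of 46 tested enzymes that break down amino acids, 12 were higher and 0 lower on creosote in Mojave animals (26.1% called, against 9.56% of all genes), and 14 were higher and 0 lower in Great Basin animals (30.4%, against 4.00%). The other 34 in Mojave and 32 in Great Basin animals did not pass. The median difference over all 46 was 0.10 in Mojave and 0.25 in Great Basin animals. Examples are Gnmt, which methylates glycine (1.27 in Mojave, 1.14 in Great Basin), and Sds, which deaminates serine (1.41 and 1.03). Of 22 genes of the response to amino acid shortage, 1 was higher and 4 were lower on creosote in Mojave animals, and 0 were higher and 4 lower in Great Basin animals. Of all genes, 3.83% were called higher and 5.73% lower in Mojave animals, and 2.08% and 1.93% in Great Basin animals. Atf5, a transcription factor of that response, fell by 0.95 in Mojave and by 1.20 in Great Basin animals, and the translation inhibitor Eif4ebp1 by 1.15 in Mojave and by 0.79 in Great Basin animals. The gene called higher in Mojave animals was Ddit4 (1.41, adjusted p = 0.0129 in limma). Averaged over the populations, Ddit4 (1.12) and the transcription factor Atf4 (0.53) were called higher. Atf5, Eif4ebp1, Gadd45a, Fgf21 and Nars were called lower there. In that comparison 5.73% of all genes were called higher and 6.38% lower. Slc7a11, a carrier known as a target of this response, was too dim to test.

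Of 39 genes of glucose use and release, 4 were higher and 4 lower in Mojave animals, and 2 were higher and 2 lower in Great Basin animals. The called share was 20.5% in Mojave animals, against 9.56% of all genes, and 10.3% in Great Basin animals, against 4.00%. G6pc, the enzyme that frees glucose for release, rose by 1.68 ± 0.23 in Mojave and 1.36 ± 0.22 in Great Basin animals, while the liver glycogen synthase Gys2 fell by 1.06 in Mojave and by 1.56 in Great Basin animals. Of 22 genes of insulin and mTOR signalling, 4 were lower in Mojave animals (18.2%, against 5.73% of all genes called lower) and 1 in Great Basin animals (4.55%, against 1.93% called lower and 4.00% called in either direction), with 0 higher.

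Hepatocyte markers were read as well. The mean value of 8 tested markers was 0.47 to 0.84 in Mojave creosote animals, -0.04 to 0.07 in Mojave juniper animals, 0.48 to 0.87 in Great Basin creosote animals and 0.01 to 0.13 in Great Basin juniper animals. Of the 8, 4 were called in Mojave animals and 2 in Great Basin animals, all higher on creosote, against 3.83% and 2.08% of all genes called higher, and 7 were above background on all 16 arrays. Serpina1 was at 0.00 in Mojave and 0.03 in Great Basin animals, Apoh at -0.16 and 0.82, and Hpx at 0.34 and 0.03, none of them called. The further listed markers Tf and Apoa1 were too dim to test. Their part in the carriers' diet differences was not tested, and in whole liver a change in the share of a cell type cannot be told apart from a change in RNA per cell.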

How the data were processed

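Liver RNA of 16 woodrats (500 ng each) was hybridised to 16 two-colour Agilent rat arrays, 1 animal per array, with no dye exchange. The deposited scanner files hold mean and background signals and the software's processed signals as linear intensity, written by Agilent Feature Extraction 9.1.3.1 per the submitters' processing notes. The deposited series values are log2 ratios that equal processed red over processed green to within 5e-10, with no further centring, and were not used for the results. No file holds probe sequences, so none is shown.

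From the mean and background signals, background was corrected by normexp with an offset of 50, which draws ratios of dim genes towards 0, and each array was normalised by loess in R 4.3.3 with limma 3.58.1. Control and outlier spots had weight 0, outlier spots were left out, and the spots of a probe were averaged. Probes needed a red signal well above background on 4 or more arrays and 2 or more values in each group. This left 30106 of 41012 probes, of which the brightest stood for its gene. Gene names are those of the array design.

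The model held 4 group means and sex over all 16 arrays (11 residual and 4.03 prior degrees of freedom), and 7 contrasts were tested two-sided with Benjamini-Hochberg adjustment over 26486 genes. On simulated data for the Great Basin diet comparison with 26486 genes, 71 of 100 changes of 0.5 and 97 of 100 of 1 (log2) were recovered, with 8 false calls. The simulated noise was independent and normal, without outliers or missing spots. Its SD was taken around the group means without allowing for their being fitted, so it was somewhat too small. Recovery in the real data may therefore be lower. Carriers named are those called in any contrast and a list by role. Members and lists were chosen with earlier results of these data known. A further listed kidney marker is not reported here. Alternatives were processed signals, an offset of 16, median centring, the red channel alone, other probe filters, every kept probe, no sex term, slide or replicate blocks, no dimmest slide, males alone, and leaving out each animal. No 2 arrays were identical. Arrays with the same replicate number did not deviate together: over 24 pairs the correlation was -0.17 to 0.14, and 2 of 16 arrays correlated best with their own number, so the numbers are treated as names. The number of arrays limits the precision, with a median SE over the carriers of 0.09 for diet in Mojave and 0.083 in Great Basin animals.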

Additional observations from a re-analysis of the deposited data

Results flagged for a closer look

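Of 36 groups, 4 for each of the 9 called carriers, 3 held an animal far from the other 3 by Dixon's test, which chance alone gives in about 1 of 20 groups. For Slc6a6 the Mojave juniper group had only 2 values, too few for this test. Great Basin creosote 2 had a Slc2a1 value of -0.03, against 0.39 to 0.43 in the other creosote animals of that population. Great Basin creosote 4 had a Slc6a12 value of 0.11, against 0.35 to 0.39 in the others of its group. Mojave juniper 4 had a Slc7a2 value of 0.09, against -0.10 to -0.07 in the others of its group.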

How the results depend on the processing

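No called difference changed its sign under any alternative run, and those of Slc3a1, Slc6a12 and Slc2a4 averaged over the populations stayed called without any 1 animal. The number of carriers called for diet in Great Basin animals was 6, with 1060 of all genes called. It was 1 with processed signals (711 of all genes called), 0 without the dimmest slide (400) and 0 in males alone (153). For diet in Mojave animals the carrier count was 3, with 2532 of all genes called. It was 1 with processed signals (1635 of all genes), the red channel alone (1105) and males alone (1069), and 6 with median centring (4767). For the averaged diet comparison the carrier count was 4, with 3209 of all genes called. It was 2 with the red channel alone (2516 of all genes) and without the dimmest slide (2112), and 1 in males alone (1255). Between populations on creosote the carrier count was 0, with 21 of all genes called. It was 7 with median centring (3124 of all genes) and 1 without the sex term (283). For the difference between diet effects it was 0, with 0 of all genes called, and 3 with median centring (2431). Leaving out each animal gave 1 to 7 carrier calls for diet in Great Basin animals, 0 to 3 in Mojave animals and 3 to 6 averaged. Between populations it gave 0 to 2 on creosote, 0 to 0 on juniper and 0 to 1 averaged over the diets, and for the difference between diet effects 0 to 1. All genes called then numbered 633 to 1243 for diet in Great Basin, 1585 to 2760 in Mojave and 2477 to 3173 averaged. Between populations they numbered 0 to 475 on creosote, 0 to 15 on juniper and 3 to 84 averaged, and for the difference between diet effects 0 to 335.

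The replicate block gave 4 calls in Great Basin animals, 2 in Mojave animals and 4 averaged (936, 2394 and 2966 over all genes). It ended those of Slc2a1 (adjusted p = 0.0529) and Slc43a2 (0.0529) in Great Basin animals and of Slc5a1 in Mojave animals (0.0903). Animals share only a number there, so a lost call does not mean a smaller effect. The slide as a block gave 5 calls in Great Basin animals, 2 in Mojave animals and 5 averaged (1045, 2465 and 3081 over all genes). The causes of these changes were not tested. Fewer arrays were fitted without a slide, in males alone or without an animal.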

Other observations

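Genes that mark zones of the liver lobule were read as a further list. Of 9 periportal genes tested, 5 were higher and 0 lower on creosote in both Mojave and Great Basin animals, with a median difference of 0.40 in Mojave and 1.00 in Great Basin animals. Of all genes, 3.83% were called higher and 5.73% lower in Mojave animals, and 2.08% and 1.93% in Great Basin animals. Of 10 central genes tested, 2 were higher and 1 lower in Mojave animals, and 2 were higher and 0 lower in Great Basin animals. The periportal list shares Alb with the hepatocyte markers, and Cps1, Ass, Hal and Sds with the amino acid breakdown enzymes. It also shares G6pc with the genes of glucose use and release. Every periportal gene called within a population is one of these shared genes.

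Among pancreas markers, Amy2 rose on creosote by 2.23 in Mojave (adjusted p = 0.000284) and 1.89 in Great Basin animals (adjusted p = 0.000511), and Ela1 rose by 0.59 in Mojave animals (adjusted p = 0.0298) and was at 0.22 in Great Basin animals, not called. The other 7 tested, Cpb1 (0.57 in Mojave, 0.15 in Great Basin animals), Prss1, Ins1, Ins2, Cpa1, Cel and Pnlip, were not called in either population. The calls were 2 of 9 in Mojave and 1 of 9 in Great Basin animals, against 3.83% and 2.08% of all genes called higher.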
